A study of Mus musculus with 2 samples.

Results

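The CXC chemokines of macrophages are described here through 6 genes, Cxcl1, Cxcl2, Pf4, Cxcl10, Cxcl13 and Cxcl16. They were chosen by symbol from a table of expression values, which listed 10402 symbols, and all 6 were listed and reached 1 FPKM in one library or both. FPKM is a count of fragments scaled by transcript length and by all mapped fragments. RNA sequencing had been run on 1 library of peritoneal macrophages from ECM1-deficient mice and 1 library from ECM1-sufficient mice. In both groups the cells came from the peritoneal cavity 3 days after ThG, as the labels name the eliciting agent, had no further activation and are marked lps- in their titles. ECM1 is extracellular matrix protein 1, a secreted glycoprotein. The labels name neither the allele, nor the strain, sex or age of the mice, nor how many animals gave a library. There were no replicates, so no test was possible, and a difference below is one between 2 libraries. In bulk RNA, fewer cells of a type and less RNA per cell cannot be told apart.

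CXC chemokines are small secreted proteins that draw leukocytes along a gradient by binding G protein-coupled receptors. They are held on cell surfaces by glycosaminoglycans. Those with the residues glutamate, leucine and arginine ahead of the first cysteines attract neutrophils through CXCR2. In macrophages their genes are switched on by Toll-like receptor and interleukin-1 signals through NF-kB. Cxcl10 is induced by interferons and attracts activated T and NK cells through CXCR3. Cxcl13 attracts B cells through CXCR5 and is made in the peritoneal cavity by resident macrophages. Pf4, also called CXCL4, is best known from platelet granules, and Cxcl16 is a membrane-anchored ligand of CXCR6 that also takes up oxidised lipoprotein.

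Of the 6 genes, 5 lie on chromosome 5 in GRCm38, and the promoters of the 4 with the largest differences are shown because the family's induction is usually described through NF-kB and interferon motifs in this window. Each sequence gives the 250 bases before the RefSeq start, 5′ to 3′ on the strand of the gene, from the GRCm38.p6 table. The positions are chr5:90890995-90891244 on the plus strand for Cxcl1, chr5:90903649-90903898 on the plus strand for Cxcl2, chr5:92348890-92349139 on the minus strand for Cxcl10 and chr5:95956689-95956938 on the plus strand for Cxcl13. Capitals mark matches, on either strand, to the kappa B consensus bound by NF-kB or to GAAA, any 2 bases and GAAA, the core of an interferon-stimulated response element.
Cxcl1: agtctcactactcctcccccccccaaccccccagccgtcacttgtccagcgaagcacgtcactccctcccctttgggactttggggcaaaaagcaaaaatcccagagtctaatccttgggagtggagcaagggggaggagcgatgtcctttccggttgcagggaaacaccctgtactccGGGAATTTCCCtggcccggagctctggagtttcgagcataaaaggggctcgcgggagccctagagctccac
Cxcl2: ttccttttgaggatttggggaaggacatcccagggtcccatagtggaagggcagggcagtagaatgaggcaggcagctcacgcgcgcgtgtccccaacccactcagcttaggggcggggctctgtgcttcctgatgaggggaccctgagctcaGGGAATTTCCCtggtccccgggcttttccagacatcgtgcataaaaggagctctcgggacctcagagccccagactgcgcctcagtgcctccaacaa
Cxcl10: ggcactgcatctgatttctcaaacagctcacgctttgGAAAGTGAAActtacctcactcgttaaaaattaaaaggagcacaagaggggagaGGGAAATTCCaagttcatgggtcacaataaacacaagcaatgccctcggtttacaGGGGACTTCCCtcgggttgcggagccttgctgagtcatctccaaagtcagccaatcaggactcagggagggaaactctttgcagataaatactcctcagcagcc
Cxcl13: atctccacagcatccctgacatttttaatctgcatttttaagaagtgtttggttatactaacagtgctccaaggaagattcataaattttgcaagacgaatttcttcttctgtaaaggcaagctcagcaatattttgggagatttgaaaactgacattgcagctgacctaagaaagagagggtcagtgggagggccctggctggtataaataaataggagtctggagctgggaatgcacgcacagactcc

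The Cxcl1 and Cxcl2 windows each held 1 kappa B stretch with the same letters, GGGAATTTCC, which overlaps a match on the other strand. It ended 61 bases before the start in Cxcl1 and 87 bases before it in Cxcl2. Those 10 letters stood in 0.0853% of 32817 RefSeq promoter windows of the same length, and the kappa B consensus in 7.25%. The Cxcl10 window held 2 kappa B stretches and 1 match to the interferon response core, a motif found in 2.97% of windows. The Cxcl13 and Pf4 windows held no match to either motif. A match describes letters and is no evidence of binding in these cells.

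The 6 genes split in 3 ways between the libraries. Cxcl2 and Cxcl13 had more FPKM in ECM1-deficient macrophages and Cxcl10 had less, each by over 2-fold, and Cxcl1 was lower by less than that on the same scale. Pf4 and Cxcl16 differed by about as much as the median gene. A gene is called higher or lower when its difference was at least 1 in size, where the difference is log2(FPKM + 1) of ECM1-deficient minus ECM1-sufficient macrophages. On that scale 2 of the 6 were higher, 1 was lower and 3 were within 2-fold. Among the 9032 genes that reached 1 FPKM, 14.8% were higher and 2.17% lower. Each of the 6 has 3 or more exons, and of the genes with that many 14.6% were higher and 1.21% lower.

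The libraries differ in scale, since 90.5% of the 9032 genes were above their ECM1-sufficient level in ECM1-deficient macrophages. A difference relative to the median gene therefore stands beside the plain one. The median ratio, over 7329 genes that reached 1 FPKM in both, was 1.73, or 0.79 as log2. With it divided out, 2 of the 6 chemokines were higher, Cxcl2 and Cxcl13, and 2 were lower, Cxcl1 and Cxcl10. By the same rule 2.45% of all genes were higher and 4.77% lower. Scaling to equal sums gave the same 2 and 2, against 4.22% and 3.28% of all genes. Sequencing depth is unknown, and low FPKM showed no steps of whole reads.

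**Figure D1:**
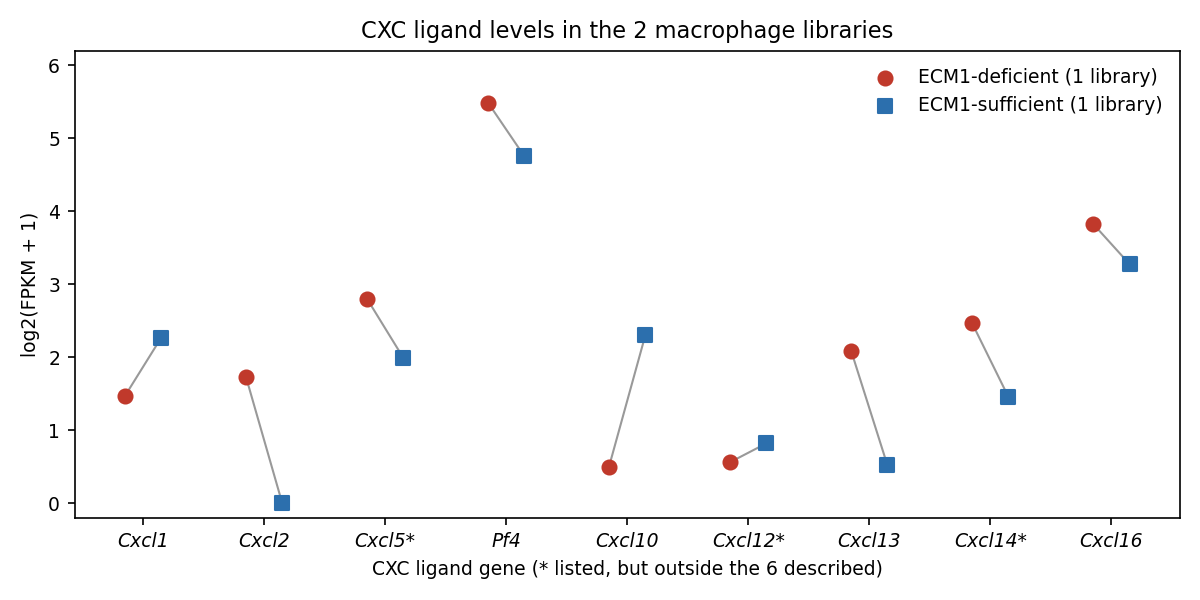
Level of the 9 listed CXC ligand genes, as log2(FPKM + 1), in ECM1-deficient macrophages (circles, left of each pair) and ECM1-sufficient macrophages (squares, right), with 1 library each and no error bars. Pf4 and Cxcl16 are the highest in both libraries, and Cxcl1 and Cxcl10 are the ones of the 6 described with the circle below the square.

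Cxcl1 and Cxcl2 encode the main neutrophil attractants of mouse macrophages. Cxcl1, with 4 exons on chromosome 5 from 90891241 to 90893115, was at 1.77 FPKM in ECM1-deficient macrophages and 3.82 FPKM in ECM1-sufficient macrophages. That is 2.16-fold lower as a ratio of FPKM, and the difference was -0.80 on the log2(FPKM + 1) scale, or -1.36 relative to the median gene. Among the 9032 genes, 2.75% had a lower difference. Cxcl2, with 4 exons from 90903871 to 90905938 on the same strand, was at 2.32 FPKM in ECM1-deficient macrophages and listed at 0 in ECM1-sufficient macrophages. Its difference was 1.73 and, set against the median gene, 1.47, and 1.87% of genes had a higher one. These neighbours, 10.8 kb apart and with the same kappa B letters in the windows printed above, therefore lay on opposite sides of the median gene.

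The 0 of Cxcl2 is a listed value and no proof of absence. Of 8486 tested genes with 3 or more exons, 1 was listed at 0 in ECM1-deficient macrophages, 0.0118%, and 6 in ECM1-sufficient macrophages, 0.0707%. The 1 was Ckap4, and the 6 were Cxcl2, Gm20390, Gm43552, Ms4a4a, Sco2, whose product helps assemble cytochrome oxidase in every cell, and Tpsb2. Over all 9032 genes the ECM1-sufficient share was 0.509%. The mitochondrial gene mt-Cytb, with 1 exon and needed by every respiring cell, was likewise listed at 0 there and at 209 FPKM in ECM1-deficient macrophages. No fold is given for Cxcl2.

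Reads of Cxcl2 can also be shared with Cxcl3, a near copy that had no value in the table used here. The first 120 coding bases of both genes in GENCODE M21 are printed to show the overlap. They lie in the first 2 exons, at chr5:90903945-90904156 for Cxcl2 and chr5:90786171-90786382 for Cxcl3, both on the plus strand of GRCm38. Capitals mark the longest run of identical coding bases.
Cxcl2: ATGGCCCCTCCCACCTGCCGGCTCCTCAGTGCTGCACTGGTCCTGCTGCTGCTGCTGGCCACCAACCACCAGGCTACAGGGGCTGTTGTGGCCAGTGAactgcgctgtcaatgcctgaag
Cxcl3: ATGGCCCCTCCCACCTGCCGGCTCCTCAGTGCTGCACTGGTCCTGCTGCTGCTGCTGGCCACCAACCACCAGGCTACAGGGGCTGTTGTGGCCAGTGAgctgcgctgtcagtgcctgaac

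The run covered coding bases 1 to 98 of both genes, and their coding sequences matched at 89.8% of 303 aligned bases. Of the 1060 windows of 50 bases in the Cxcl2 transcript, 61 also occurred in Cxcl3, which is 5.75%. For Cxcl1, Pf4, Cxcl10, Cxcl13 and Cxcl16, 0 such windows occurred in a transcript of another gene. For Cxcl5, described below, 47 of 1526 windows did, which is 3.08%. Cxcl1 and Cxcl2 matched at 78.7% of aligned coding bases, and their longest shared coding run was 21 bases. How the authors' counting divided reads between Cxcl2 and Cxcl3 is not given in the sources used here, so the Cxcl2 value is uncertain in that respect.

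The other listed neutrophil attractant of the family, Cxcl5, was at 5.97 FPKM in ECM1-deficient macrophages and 2.98 FPKM in ECM1-sufficient macrophages. Its difference of 0.81 was close to that of the median gene, with 0.17 left after the median ratio was divided out. Summed over Cxcl1, Cxcl2 and Cxcl5, the level was 10.1 FPKM in ECM1-deficient macrophages and 6.80 FPKM in ECM1-sufficient macrophages, a ratio of 1.48. The sum therefore differed by less than the median gene, while its makeup differed. Cxcl5 stood at 3.38 times Cxcl1 in ECM1-deficient macrophages and 0.781 times Cxcl1 in ECM1-sufficient macrophages.

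Pf4 was the highest of the family in both libraries. Its 3 exons lie on chromosome 5 from 90772435 to 90773383. The level was 43.9 FPKM in ECM1-deficient macrophages and 26.0 FPKM in ECM1-sufficient macrophages, a 1.69-fold ratio. Its difference was 0.73 and, set against the median gene, -0.03, which is nearly the difference of the median gene itself. Of the 10 platelet and megakaryocyte markers, 1 was listed, Clec1b, and it was below 1 FPKM in both groups. The platelet genes Ppbp, a CXC ligand itself, Itga2b and Gp9 had no value in the table used here.

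**Figure D2:**
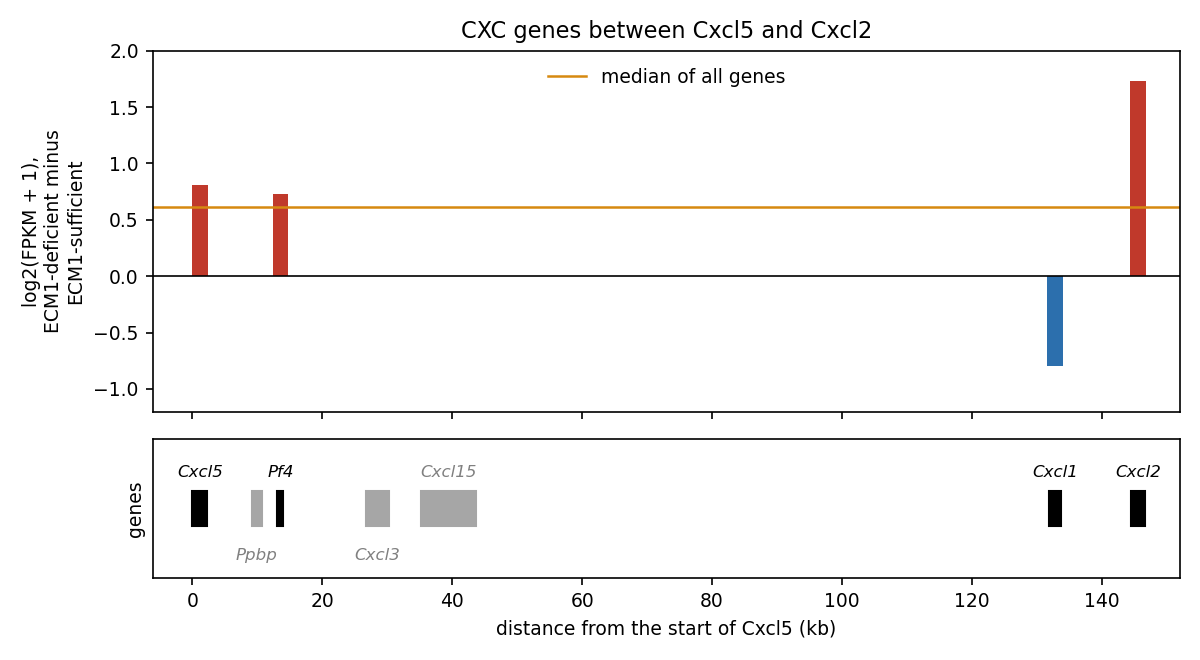
CXC genes from Cxcl5 to Cxcl2 on chromosome 5, drawn to scale as distance from the start of Cxcl5 in kb (lower panel, black for listed genes and grey for genes with no value here), and the difference in log2(FPKM + 1), ECM1-deficient minus ECM1-sufficient, of the listed ones (upper panel). The bars of Cxcl5 and Pf4 end near the median of all genes, 0.61, whereas Cxcl1 lies below 0 and Cxcl2 at 1.73.

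The differences varied along the chromosome. The cluster from Cxcl5 to Cxcl2 spans 147 kb and holds 7 CXC genes in the annotation, of which 4 were listed. Its Cxcl5 and Pf4 end lay at the median gene, and its Cxcl1 and Cxcl2 end held 1 gene below and 1 above. The listed gene after Cxcl2, Rchy1, a ubiquitin ligase gene, was at 5.68 FPKM in ECM1-deficient macrophages and 4.73 FPKM in ECM1-sufficient macrophages. On the sides of Cxcl10, Sdad1 and Nup54 differed by 0.86 and 0.90. Before Cxcl13, Ccng2 differed by 1.11, and after it Cnot6l differed by -0.27. Next to Cxcl16, Med11 differed by 0.31 and the proteasome gene Psmb6 by 1.70. Relative to the median gene, these 7 neighbours were all within 2-fold.

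Cxcl10 had the lowest difference of the 6. Its 4 exons lie on chromosome 5 from 92346638 to 92348889. The level was 0.417 FPKM in ECM1-deficient macrophages and 3.94 FPKM in ECM1-sufficient macrophages, 9.45-fold lower. The difference was -1.80 and, set against the median gene, -2.23, and 0.919% of genes had a lower one. Cxcl9 and Cxcl11, which neighbour Cxcl10 and also bind CXCR3, had no value in the table used here, and neither did Cxcr3.

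Genes of the interferon path lay on both sides beside Cxcl10. The list held 26 genes, of which 25 were listed and tested, with 4 higher, 3 lower and 18 within 2-fold. Of all genes, 14.8% were higher and 2.17% lower. The list median was 0.66, against 0.61 over all genes. Its 16 receptors, kinases and transcription factors had 4 higher and 0 lower, with a median of 0.87, and 0 past 2-fold relative to the median gene. Irf8 was at 11.3 FPKM in ECM1-deficient macrophages and 3.55 FPKM in ECM1-sufficient macrophages. Irf1, a factor that acts on the Cxcl10 gene, was at 6.36 FPKM in ECM1-deficient macrophages and 2.03 FPKM in ECM1-sufficient macrophages. Tbk1 and Ikbke, kinases that activate interferon regulatory factors, were 2.16-fold and 2.46-fold higher.

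The interferon-induced genes of that list, separated by role after the values were known, lay on the side of Cxcl10. Of 9 listed, 3 were lower, 0 higher and 6 within 2-fold, and their median difference was -0.50. Relative to the median gene 6 were lower and 0 higher, with a median of -1.10. Of all genes, 2.17% were lower as deposited and 4.77% relative to the median gene. Ifit2, an RNA-binding antiviral protein, was at 0.0514 FPKM in ECM1-deficient macrophages and 9.21 FPKM in ECM1-sufficient macrophages. Cmpk2, a nucleotide kinase, was 2.80-fold lower and Rsad2, the antiviral protein viperin, 2.81-fold lower. Ifit1, Ifit3 and Isg15, with 2 exons each, had differences of -0.85, -0.50 and -0.41, and Gbp2, Oasl1 and Usp18 had 0.47, 0.35 and 0.32. As deposited, all 16 upstream genes had more FPKM in ECM1-deficient macrophages, as did 90.5% of all genes, and their relative median was 0.14. In contrast, 6 of the 9 induced genes had less, where 9.52% of all genes did.

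Cxcl13 was higher in ECM1-deficient macrophages. Its 4 exons lie on chromosome 5 from 95956951 to 95961068. The level was 3.26 FPKM in ECM1-deficient macrophages and 0.434 FPKM in ECM1-sufficient macrophages, 7.50-fold higher. The difference was 1.57 and, set against the median gene, 1.15, and 2.47% of genes had a higher one. Its receptor gene Cxcr5 had no value in the table used here. Of the 10 genes of the lymphoid tissue path, which switches on Cxcl13 in lymphoid organs, 5 were listed and 4 tested. As deposited 1 was higher and 0 lower, where 14.8% of all genes were higher and 2.17% lower. Relative to the median gene 0 were past 2-fold. The higher one was Tnfrsf1b, a receptor for tumour necrosis factor, 2.64-fold higher, whereas Ltbr, the lymphotoxin beta receptor, had a difference of 0.63 and Tnf one of 0.10. Ltb was at 0.840 FPKM in ECM1-deficient macrophages and listed at 0 in ECM1-sufficient macrophages.

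Markers of other cells that can make Cxcl13 or respond to it are given beside it, and their sums are to be read against the median ratio of 1.73 between the libraries. Of 7 B cell markers 3 were listed, with a summed level of 9.52 FPKM in ECM1-deficient macrophages and 3.67 FPKM in ECM1-sufficient macrophages, a ratio of 2.59. Cd79a, a chain of the B cell receptor complex, was at 2.43 FPKM in ECM1-deficient macrophages and 0.378 FPKM in ECM1-sufficient macrophages. Cd22 was also 2.59-fold higher and Cd79b had a difference of 0.23, while Ms4a1 and Pax5 had no value here, and relative to the median gene 0 of the 3 passed 2-fold. Of 11 mesothelial and fibroblast markers 7 were listed, with a summed level of 121 FPKM in ECM1-deficient macrophages and 62.4 FPKM in ECM1-sufficient macrophages, a ratio of 1.94. Pdgfra, a growth factor receptor of fibroblasts, was 4.86-fold higher, Dcn 2.19-fold and Sparc 2.04-fold, and of the 7 Pdgfra alone passed 2-fold relative to the median gene. The differences of Upk3b, Col3a1, Col1a1 and Wt1 were 0.69, 0.62, 0.11 and -0.14. For large resident peritoneal macrophages 5 of 11 markers were listed, summing to 76.8 FPKM in ECM1-deficient macrophages and 40.7 FPKM in ECM1-sufficient macrophages, a ratio of 1.89. F10 was 2.18-fold and Thbs1 2.35-fold higher, both within 2-fold relative to the median gene. The defining factor Gata6 had a difference of 0.50, and Serpinb2 had one of -0.54, which was -1.22 and lower relative to the median gene. Icam2, below the 1 FPKM needed for a call, was at 0.589 FPKM in ECM1-deficient macrophages and listed at 0 in ECM1-sufficient macrophages. Timd4 had no value. The part of these cells in the Cxcl13 difference was not tested.

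Cxcl14, a chemokine of epithelia and stroma, was at 4.52 FPKM in ECM1-deficient macrophages and 1.74 FPKM in ECM1-sufficient macrophages. Its difference of 1.01 passed 2-fold, and 0.43 was left relative to the median gene. Cxcl12, which retains leukocytes in tissues, was at 0.477 FPKM in ECM1-deficient macrophages and 0.766 FPKM in ECM1-sufficient macrophages, below the 1 FPKM needed for a call. With these and Cxcl5, 9 of 15 CXC ligand genes were listed.

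Cxcl16 differed little from the median gene. Its 5 exons lie on chromosome 11 from 70453983 to 70459984. The level was 13.2 FPKM in ECM1-deficient macrophages and 8.69 FPKM in ECM1-sufficient macrophages, a 1.52-fold ratio. The difference was 0.55 and, set against the median gene, -0.17. Adam10, the protease that sheds Cxcl16 from resting cells, was at 27.5 FPKM in ECM1-deficient macrophages and 12.5 FPKM in ECM1-sufficient macrophages, 2.19-fold higher but within 2-fold relative to the median gene. Adam17, which sheds it after stimulation, was at 20.2 FPKM in ECM1-deficient macrophages and 11.9 FPKM in ECM1-sufficient macrophages. Rhbdf2, whose product iRhom2 matures that protease, had a difference of 0.34.

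Proteoglycans that hold chemokines, and enzymes that trim them, mostly lay near the median gene. Of 18 genes of ligand processing 16 were tested, with 2 higher, 0 lower and 14 within 2-fold. Their median was 0.70, and -0.05 relative to the median gene, where 0 were higher and 1 lower. Of all genes, 14.8% were higher and 2.17% lower as deposited, and 2.45% and 4.77% relative to the median gene. Besides Adam10 the higher list gene was Ndst2, which sulfates heparan chains, at 4.73 FPKM in ECM1-deficient macrophages and 1.80 FPKM in ECM1-sufficient macrophages. Ndst1, which does the same, and the heparan polymerases Ext1 and Ext2 had differences of 0.60, 0.12 and 0.79. The cell-surface proteoglycans Sdc1, Sdc3, Sdc4 and Gpc1 had differences of 0.71, 0.65, 0.85 and 0.90, and Sdc2 one of -0.60. Srgn, serglycin, which binds Pf4 in granules, had a difference of 0.02. Of the matrix metalloproteinases, Mmp12 was at 176 FPKM in ECM1-deficient macrophages and 108 FPKM in ECM1-sufficient macrophages, Mmp9 had a difference of 0.88, and Mmp14 one of -0.37, which was -1.08 and lower relative to the median gene.

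Receptors were few. Of 11 CXC and atypical receptor genes 2 were listed. Cxcr4, the receptor of Cxcl12, was at 72.1 FPKM in ECM1-deficient macrophages and 37.1 FPKM in ECM1-sufficient macrophages, with a difference of 0.94. Ccrl2, an atypical receptor that binds chemerin without signalling, was at 17.3 FPKM in ECM1-deficient macrophages and 6.41 FPKM in ECM1-sufficient macrophages, 2.70-fold higher. Neither passed 2-fold relative to the median gene. Cxcr2, the receptor of Cxcl1 and Cxcl2 on neutrophils, had no value in the table used here. Of 10 neutrophil markers 3 were listed, summing to 8.52 FPKM in ECM1-deficient macrophages and 6.40 FPKM in ECM1-sufficient macrophages. Csf3r was 2.84-fold higher but within 2-fold relative to the median gene, and S100a8 had a difference of -0.35. Retnlg, below the 1 FPKM needed for a call, was at 0.806 FPKM in ECM1-deficient macrophages and listed at 0 in ECM1-sufficient macrophages. S100a9 and Ly6g had no value.

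**Figure D3:**
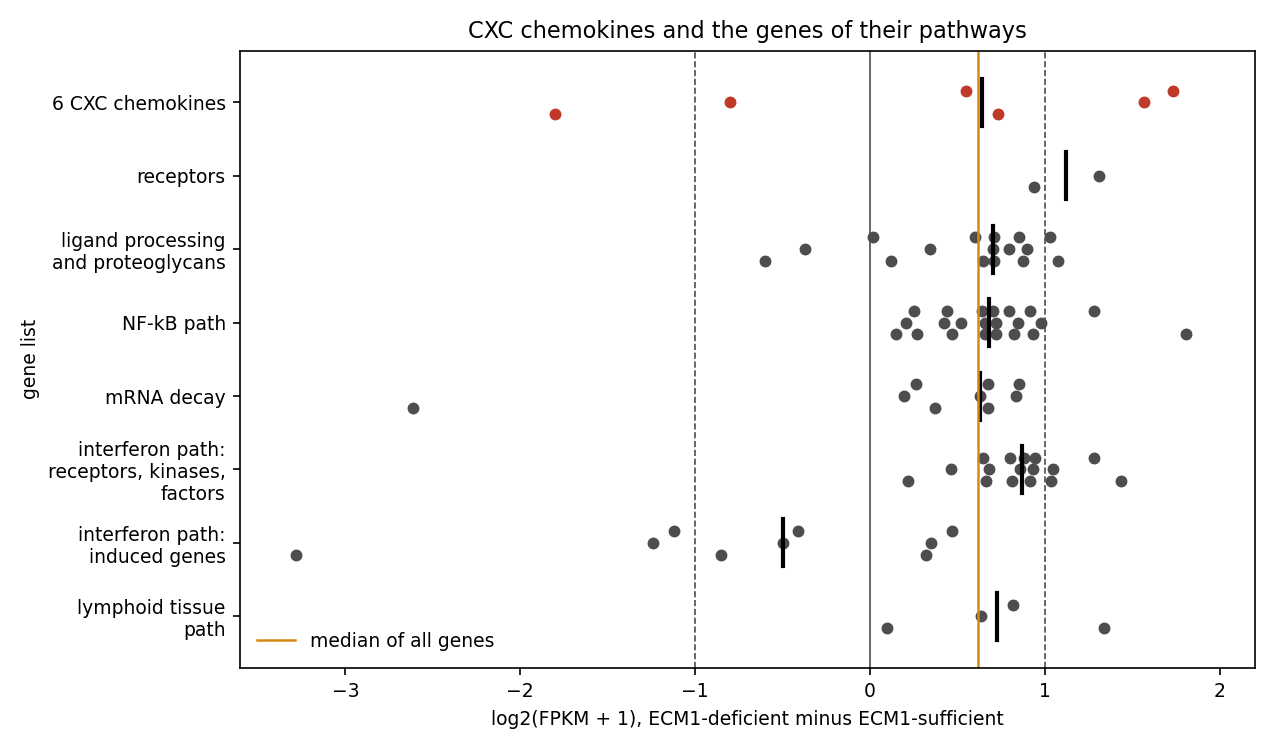
Difference in log2(FPKM + 1), ECM1-deficient minus ECM1-sufficient, of each tested gene (points) in the lists of pathway genes, with the list median (black bar), 2-fold (dashed lines) and the median of all genes (orange). The 6 chemokines run from -1.80 to 1.73, the 22 NF-kB genes lie above 0 as deposited, with a median of 0.03 relative to the median gene, and 6 of the 9 interferon-induced genes lie below 0.

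The genes of the NF-kB path stayed close to the median gene. All 22 were tested and had more FPKM in ECM1-deficient macrophages as deposited, with a median of 0.68, which was 0.03 relative to the median gene. As deposited 2 were higher, 0 lower and 20 within 2-fold. Over all genes 90.5% had more FPKM in ECM1-deficient macrophages, 14.8% were higher and 2.17% lower. The inhibitors Tnfaip3 and Nfkbib were the higher ones, at 5.28 FPKM in ECM1-deficient macrophages and 0.792 FPKM in ECM1-sufficient macrophages for Tnfaip3, and 3.71-fold above the ECM1-sufficient level for Nfkbib. Relative to the median gene, Tnfaip3 alone among the 22 was past 2-fold, at 1.30. Of 10 genes that control the decay of chemokine mRNA 9 were tested, with 0 higher, 1 lower and 8 within 2-fold. Zfp36l2, a gene of 2 exons whose product binds AU-rich mRNA and promotes its decay, was at 3.67 FPKM in ECM1-deficient macrophages and 27.6 FPKM in ECM1-sufficient macrophages. Its relative Zfp36 had a difference of 0.19. Of the 196 lower genes among all tested, 103 had 3 or more exons.

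**Figure D4:**
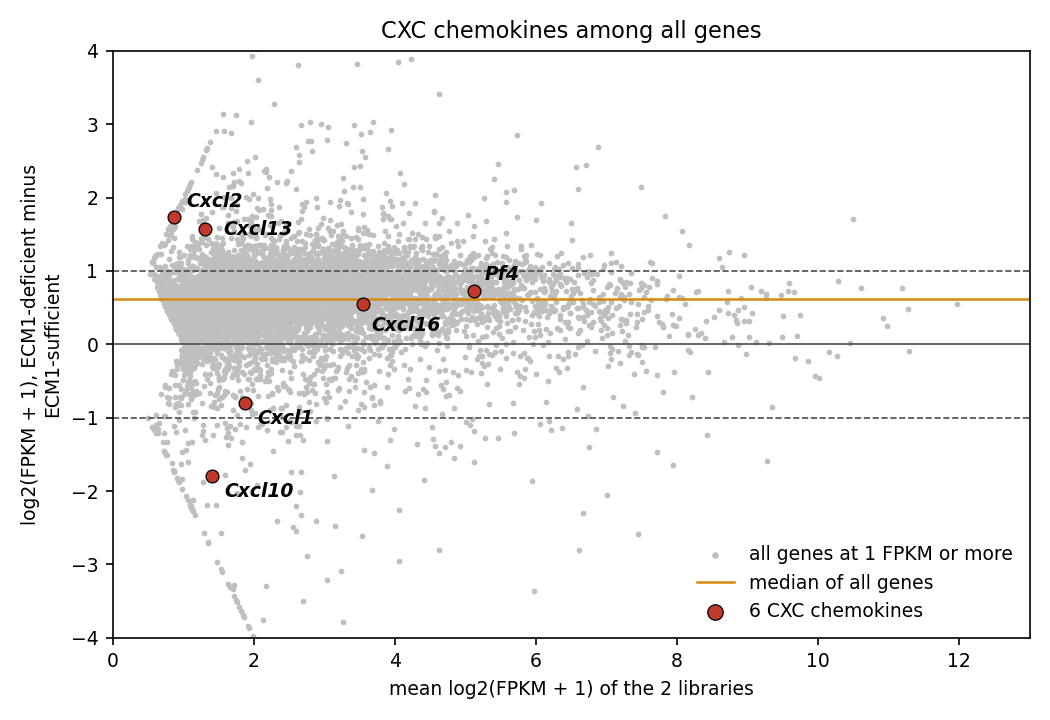
Difference in log2(FPKM + 1), ECM1-deficient minus ECM1-sufficient, against the mean of both libraries for the 9032 tested genes (grey) and the 6 CXC chemokines (red), with 2-fold (dashed) and the median gene (orange), and 27 genes beyond the vertical range. Pf4 and Cxcl16 sit on the median line and the 4 weakly expressed chemokines sit away from it, 2 above and 2 below.

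The 4 genes away from the median gene were all weakly expressed, with 2.32 to 3.94 FPKM in the library where each was higher. In ECM1-deficient macrophages the order of levels was Pf4, Cxcl16, Cxcl13, Cxcl2, Cxcl1 and Cxcl10. In ECM1-sufficient macrophages it was Pf4, Cxcl16, Cxcl10, Cxcl1, Cxcl13 and Cxcl2, so the first 2 places were the same and the pairs behind them exchanged places. Without replicates, which neighbours in these orders differ beyond error is unknown. Among 4540 genes whose higher FPKM was from 1 to 5, 7.33% were higher and 1.63% lower, and 1.39% and 3.39% relative to the median gene. Apart from Cxcl16, at 2699 bases, the 6 genes also have short transcripts, from 588 bases in Pf4 to 1859 bases in Cxcl2. Among 2548 genes whose longest coding transcript was up to 2000 bases, 16.1% were higher and 3.65% lower. Relative to the median gene, 3.22% of them were higher and 8.52% lower.

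The genes most like each chemokine were found by distance in log2(FPKM + 1) over the 2 libraries. For Cxcl1 they were Clec4e, a C-type lectin receptor of macrophages, at a distance of 0.02, St6galnac6 at 0.04 and Lars2 at 0.08. For Cxcl2 they were Eid2b, Zfp623 and Commd5, at 0.02, 0.08 and 0.08. For Cxcl10 the nearest were Pigc, Mex3c and Bag5, at 0.19 to 0.29, and for Cxcl13 Tbc1d22b, Sgsh and Gpr39, at 0.03 to 0.08. Dctn6, Grpel1 and Fam21 lay within 0.02 of Cxcl16, and Wdr1, Nol7 and Rabac1 lay at about 0.04 from Pf4. With only 2 values a gene, such likeness is a match of levels.

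In the authors' deposited gene ontology table, 3 of the 6 chemokines appeared, Cxcl2 in 88, Cxcl13 in 153 and Pf4 in 248 of 2592 terms. All 4183 genes named in its terms that had FPKM here favoured ECM1-deficient macrophages by 1.5-fold or more in the authors' fold ratio, a limit that 47.5% of the 10403 rows passed. Cxcl16, at 1.46-fold by that ratio in the authors' deposited table, was below it, and Cxcl1 and Cxcl10 differed in the other direction, so none of these 3 is in a term. The authors' deposited table gives leukocyte chemotaxis with 50 of 147 genes, Cxcl2, Cxcl13 and Pf4 among them, a fold enrichment of 1.60 and a false discovery rate of 0.000441. Chemotaxis, the broader term, holds the same 3 chemokines. For it the authors' deposited table gives 109 of 458 genes, a fold enrichment of 1.12 and a false discovery rate of 0.0998. Neutrophil chemotaxis, neutrophil migration and granulocyte migration each hold Cxcl2. For neutrophil chemotaxis the authors' deposited table gives 19 of 62 genes, a fold enrichment of 1.45 and a false discovery rate of 0.0899. For neutrophil migration the authors' deposited table gives 24 of 71 genes, a fold enrichment of 1.59 and a false discovery rate of 0.0190. For granulocyte migration the authors' deposited table gives 29 of 88 genes, a fold enrichment of 1.55 and a false discovery rate of 0.0137. For lymphocyte chemotaxis, which holds Cxcl13, the authors' deposited table gives 11 of 26 genes, a fold enrichment of 1.99 and a false discovery rate of 0.0279. These terms therefore count the genes on the ECM1-deficient side only. The authors' deposited table sets a list of 4944 genes against a background of 23313 genes, which is more than the 10403 rows here. How far the fold enrichments reflect that background, or the difference in scale between the libraries, was not tested.

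The labels were checked against the targeted gene and macrophage markers. Ecm1 was at 1.02 FPKM in ECM1-deficient macrophages and 5.63 FPKM in ECM1-sufficient macrophages, 5.51-fold lower. All 12 macrophage core genes were listed, with 6 higher, 1 lower and 5 within 2-fold, where 14.8% of all genes were higher and 2.17% lower. Relative to the median gene 2 were higher, 1 lower and 9 within. Fcgr1, Spi1 and C5ar1 were 4.72-fold, 4.28-fold and 3.53-fold higher, and Fcgr1 and Spi1 were the 2 past 2-fold relative to the median gene. The lower one, Lyz2, the macrophage lysozyme, was at 5.44 FPKM in ECM1-deficient macrophages and 2774 FPKM in ECM1-sufficient macrophages. Without Lyz2 the core genes summed to 3209 FPKM in ECM1-deficient macrophages and 2259 FPKM in ECM1-sufficient macrophages. For monocytes and small peritoneal macrophages 6 of 8 markers were listed, with Itgax, F13a1 and Chil3 higher by 3.15-fold, 2.66-fold and 2.29-fold and Ccr2, Fn1 and Cx3cr1 within 2-fold. Relative to the median gene 0 of these 6 were past 2-fold. Il7r was the only listed one of 10 T and NK cell markers, at 107 FPKM in ECM1-deficient macrophages and 60.3 FPKM in ECM1-sufficient macrophages. Cd24a was the only listed one of 7 dendritic markers, at 1.60 FPKM in ECM1-deficient macrophages and 34.8 FPKM in ECM1-sufficient macrophages. The part of other cells in the chemokine differences was not tested.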

How the data were processed

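RNA was measured in 1 ECM1-deficient and 1 ECM1-sufficient library of peritoneal macrophages. Per the labels' protocol, the libraries were made from poly(A) RNA and kept the strand. The submitters' processing notes name HISAT2, StringTie 1.2.3 and the build mm9. The deposited coordinates matched GENCODE M21 on GRCm38 instead, with 8060 of 10384 matched identifiers at identical start and end and all 10384 overlapping, so positions are given as GRCm38.

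The authors deposited linear FPKM per gene, which were used here, together with log2 values of FPKM + 1, a log2 difference and a fold ratio of ECM1-sufficient over ECM1-deficient. Every deposited p-value and q-value in that table was 1. The authors' gene ontology table holds, per the file headers, a fold enrichment for each term, its p-value and its false discovery rate. Each listed gene reached at least 0.500 FPKM in one library or both. The values of 1 line and of a few genes are not reported here. FPKM hold no counts, and no counting interval can be given.

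FPKM were summed by symbol (1 symbol had more than 1 entry), and the 9032 genes that reached 1 FPKM were compared. The difference used a pseudocount of 1, which makes the differences of weak genes smaller than a log2 ratio without it. With 1 library per group, the true size of these differences is unknown. Single-gene folds are ratios of FPKM. For values relative to the median gene, the square root of the median ratio was taken out of the ECM1-deficient FPKM and put into the ECM1-sufficient FPKM, before 1 was added. For equal sums both libraries were scaled to the geometric mean of their sums. The calculation was tested on simulated data in which only genes well above the levels of the weak chemokines were changed. That test does not cover calls on weak genes.

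The 6 members and the gene lists were chosen with earlier results of these data known. Named genes were the members, Ecm1, all listed genes of the ligand, receptor and processing lists, up to 4 past 2-fold from each further list or the 2 highest where none was, the 3 nearest genes by level, leaving out predicted models, and the nearest listed neighbours. Other genes are named as examples of their list. Promoter windows came from RefSeq, with an entry for 5 of the 6 members. Exons, coding sequences and transcripts came from GENCODE M21. Calculations used Python 3.11.15, pandas 2.3.3, numpy 2.4.6 and Biopython 1.88. Alternatives were pseudocounts of 0.1 and 5, no minimum and a minimum of 5 FPKM, division by the median ratio, equal sums, thresholds of 1.5-fold and 4-fold, and genes with 3 or more exons. Genes with a higher FPKM of 1 to 5 and transcripts up to 2000 bases were added after the data were seen.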

Additional observations from a re-analysis of the deposited data

How the results depend on the processing

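Division by the median ratio and scaling to equal sums were the alternatives that could turn a sign, and only for Cxcl13, Pf4 and Cxcl16, since both lower the ECM1-deficient values and Cxcl2 is listed at 0 in ECM1-sufficient macrophages. Cxcl13 was at 1.15 after division and 1.33 with equal sums, Pf4 at -0.03 and 0.29, and Cxcl16 at -0.17 and 0.14. The other alternatives leave the sign fixed, and pseudocounts of 0.1 and 5 moved Cxcl2 to 4.60 and 0.55, Cxcl13 to 2.65 and 0.60, Cxcl10 to -2.97 and -0.72, and Cxcl1 to -1.07 and -0.38. A minimum of 5 FPKM removed the 4 weak genes, which leaves 0 members higher and 0 lower, and 122 genes lower in all. With a pseudocount of 5, 0 members were higher and 0 lower, against 286 and 89 of all genes and 1 and 2 of the related genes, which are those of the other ligand, receptor, processing and pathway lists together. At 4-fold the members again gave 0 and 0, all genes 109 and 72, and the related genes 0 and 2. Cxcl1 joined Cxcl10 as a lower member, making 2, with a pseudocount of 0.1, at 1.5-fold, with equal sums and after division by the median ratio. With a pseudocount of 0.1, 2944 genes and 21 related genes were higher, where the values as reported are 1337 and 11. At 1.5-fold, Pf4 joined Cxcl2 and Cxcl13 as a higher member, making 3. At that limit 4849 of all genes were higher, 332 lower, and 51 related genes higher. Division by the median ratio gave 221 genes higher and 431 lower, and 1 and 8 related genes, where 4 related genes were lower as deposited. Equal sums gave 381 and 296 genes and 2 related genes higher. With 3 or more exons 103 genes were lower, where 196 are lower over all genes, and from 1 to 5 FPKM 333 were higher and 74 lower. Fewer genes were tested in these last settings. Values near 1 FPKM depend on the pseudocount, and the causes of the other shifts were not tested. No paired analysis was possible because each group has 1 library.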
